A study of Mus musculus with 6 samples.

Results

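The expression of 10 genes of the epithelial-to-mesenchymal transition (EMT) was followed in mammary tumors of mice treated with an anti-PD-1 monoclonal antibody (mAb) or with control IgG. The genes were the transcription factors Snai1, Snai2, Twist1, Twist2, Zeb1 and Zeb2, the cadherins Cdh1 and Cdh2, the epithelial adhesion molecule Epcam and the intermediate filament gene Vim. They were found by symbol, through their Ensembl gene IDs, among 54532 gene IDs listed for each tumor, and all 10 were present. RNAseq of 6 tumors was used, 3 from IgG-treated and 3 from anti-PD-1-treated mice, with 1 library per tumor.

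The mice were NeuT/ATTAC animals. They carried the MMTV-NeuT transgene, in which the MMTV promoter drives an Erbb2 oncogene in mammary epithelium, and the FAT-ATTAC transgene, through which the drug AP20187 ablates fat cells and induces mammary fibrosis. Both groups received AP20187 at 0.4 mg/kg from 6 weeks of age, so the controls carried the fibrosis model too. From 8 weeks of age the IgG group received 100 μg of IgG and the anti-PD-1 group 100 μg of anti-PD-1 mAb, injected 2 times per week. The study describes RNA pooled within each group, whereas the values used here are given for 3 tumors per group, and nothing in the sources used here says that each tumor came from a separate animal. A p-value therefore measures the spread between these tumors only.

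EMT is a program in which epithelial cells loosen their contacts and take on features of mesenchymal cells. Zinc-finger factors of the Snail and Zeb families and helix-loop-helix factors of the Twist family drive it in development and in carcinomas, and many of them bind E-box motifs and repress Cdh1, which encodes E-cadherin. Loss of E-cadherin, gain of N-cadherin (Cdh2) and gain of vimentin (Vim) are its usual readouts, although vimentin is also made by fibroblasts, endothelial cells and leukocytes, which every whole tumor contains.

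The sequences shown first are those through which the factors and their candidate targets are commonly discussed. Snail and Zeb proteins recognize the E-box CAGGTG, and RefSeq start-site windows (GRCm38.p6, 250 bases before and 50 after the start, both strands searched) were on hand for 6 of the 10 genes. Of their 9 windows, 2 held this motif, 1 time in that of Snai1 and 2 times in that of Epcam, and 20.2% of all 32851 windows of this length held it. No window was on hand for Cdh1, Snai2, Zeb1 and Cdh2, so these genes were not searched. The 250 bases before the start of Snai1 (chr2:167537945-167538194, plus strand) and of Epcam (chr17:87635729-87635978, plus strand) are given from 5′ to 3′ with the E-boxes in capitals, read as CACCTG where the motif lies on the other strand.
Snai1: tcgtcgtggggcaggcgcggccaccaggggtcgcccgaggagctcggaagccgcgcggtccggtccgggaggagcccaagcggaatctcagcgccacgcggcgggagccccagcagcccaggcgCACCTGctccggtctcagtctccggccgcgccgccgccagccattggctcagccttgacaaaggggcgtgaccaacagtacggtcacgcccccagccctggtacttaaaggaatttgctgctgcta
Epcam: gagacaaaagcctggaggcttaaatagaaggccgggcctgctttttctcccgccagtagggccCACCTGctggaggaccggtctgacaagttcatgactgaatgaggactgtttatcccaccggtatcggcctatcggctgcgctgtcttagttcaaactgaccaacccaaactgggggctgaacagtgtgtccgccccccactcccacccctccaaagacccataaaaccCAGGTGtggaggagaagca
The first base of the Snai1 motif lay at -126 from the start site, and those of the Epcam motifs at -187 and -19. A match describes the letters only and says nothing of binding in these tumors.

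Each Snail and Twist gene has a close paralog among the 10, so the stretch in which reads could not be assigned to one of the pair was sought in the coding sequences (GENCODE M21, GRCm38, without the stop codon). The longest exact run shared by Snai1 (792 coding bases) and Snai2 (807) was 22 bases, the start of both coding sequences. It encodes the beginning of the SNAG domain, a repression domain of Snail proteins. The longest run shared by Twist1 (618 coding bases) and Twist2 (480) was 23 bases. Each run is printed in capitals with neighbouring coding bases in lower case, from chr2:167538290-167538329 for Snai1, chr16:14705974-14706013 for Snai2, chr12:33958362-33958420 for Twist1 and chr1:91801873-91801931 for Twist2, all on the plus strand.
Snai1 coding start: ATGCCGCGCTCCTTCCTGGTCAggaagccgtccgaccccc
Snai2 coding start: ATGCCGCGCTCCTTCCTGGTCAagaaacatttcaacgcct
Twist1 coding stretch: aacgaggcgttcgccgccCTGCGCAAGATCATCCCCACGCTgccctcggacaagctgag
Twist2 coding stretch: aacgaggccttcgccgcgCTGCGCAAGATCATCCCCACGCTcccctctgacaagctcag

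The values were FPKM, read densities per length of exon and size of library, which allow levels to be compared between genes of different length. From 97.0% to 97.3% of the detected values per tumor gave a whole read count, to a tolerance of 0.1, once multiplied by exon length, and the reads so recovered totalled 21065845 to 23843887 per tumor. Values per tumor are given in the order of replicates 1 to 3 of each group. In counts of genes with a higher or lower mean, the mean is that of log2(FPKM + 1). Differences of log2(FPKM + 1) were tested by limma, two-sided, over the 15069 genes with a mean of at least 0.5 FPKM over the 6 tumors. Of the 10 genes, 8 passed this minimum and Twist2 and Cdh2 did not. A gene is called past the study thresholds when its unadjusted p is under 0.05 and its change is at least 1.5-fold. Here the fold is that of FPKM + 1, and a further minimum that the study set on a raw score was not applied. At an adjusted p under 0.05 limma called none of the 15069 genes (0%), although 1848 had an unadjusted p under 0.05, and limma's voom on the recovered reads called 1. With 3 tumors on each side, the smallest p of an exact permutation test is 0.1.

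The tumors carried an epithelial profile in all 6 libraries, with the luminal keratin genes Krt8 at 431 to 1041 FPKM and Krt18 at 685 to 1385 FPKM. Epcam, Cdh1 and Vim were the highest of the 10 genes, with means over the 6 tumors of 949, 86.9 and 57.0 FPKM. Snai1 followed at 2.65, Twist1 at 1.28, Zeb2 at 0.798, Zeb1 at 0.682 and Snai2 at 0.531 FPKM, and Cdh2 (0.125) and Twist2 (0.0646) came last. Between neighbours in this order the 6-tumor ranges were separate only for Epcam over Cdh1 and for Vim over Snai1, and the other neighbours overlapped. Epcam exceeded the summed FPKM of the 6 transcription factors by 107 to 411 times within each tumor.

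**Figure D1:**
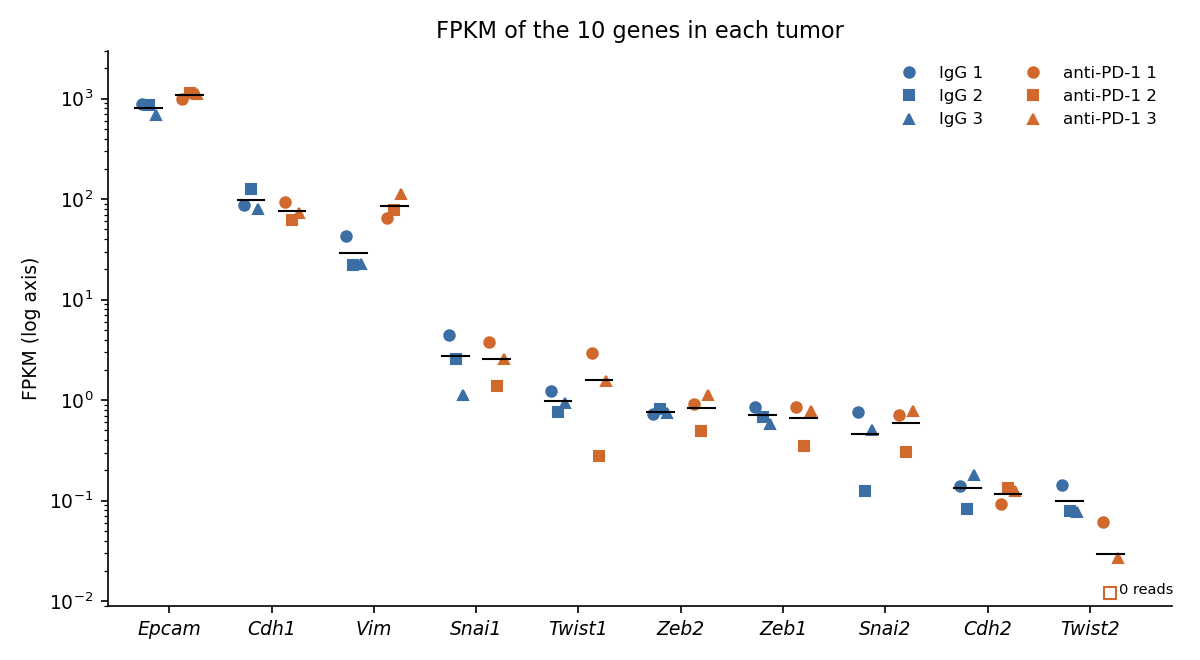
FPKM (log axis) of the 10 genes in 3 IgG tumors (blue) and 3 anti-PD-1 tumors (orange), with marker shape giving the replicate and black bars the group means; the hollow square stands for 0 reads and is drawn at the foot of the axis. Vim and Epcam are the tested genes whose groups do not overlap, and the square of anti-PD-1 replicate 2 lies lowest for Twist1, Twist2, Zeb1 and Zeb2.

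Of the 8 tested genes, 1 was past the study thresholds, Vim, in which the anti-PD-1 tumors were higher. Over all tested genes 3.9% were higher at these thresholds and 4.53% lower. In 2 of the 8, Vim and Epcam, all anti-PD-1 tumors exceeded all IgG tumors, as they did in 9.3% of tested genes, and in 0 of the 8 were all anti-PD-1 tumors below, against 8.75%. The numbers of called genes over the whole table shifted with single tumors, from 587 higher and 683 lower to 999 and 1234 without IgG replicate 1, to 352 and 386 without IgG replicate 2, and to 454 lower without anti-PD-1 replicate 3. A mean higher in anti-PD-1 tumors was found in 5 of the 8 genes, with a median log2 fold change of 0.09, beside 50.8% of genes and a median of 0.01 over the whole table. The counts of marker genes given next are to be read beside the same shares.

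**Figure D2:**
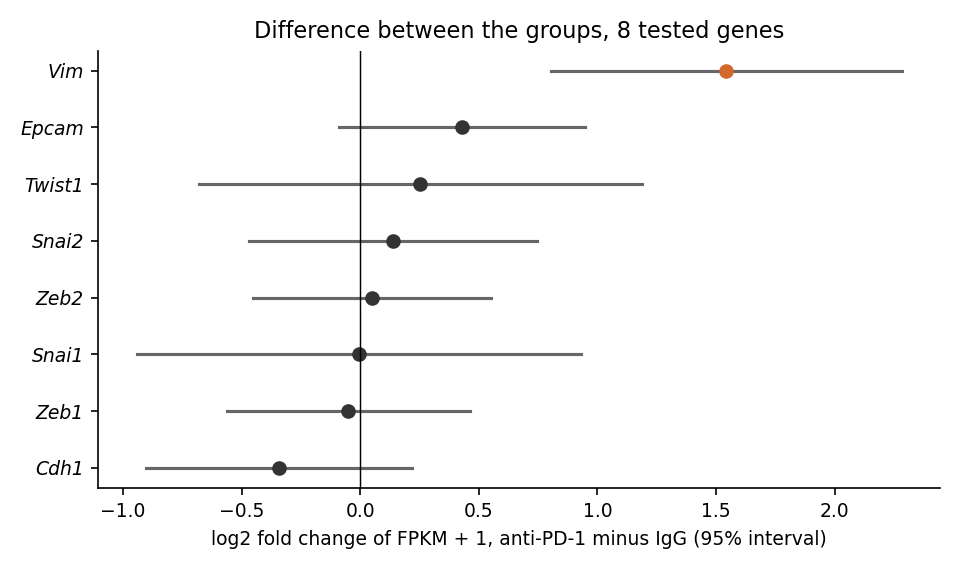
Log2 fold change of FPKM + 1, anti-PD-1 minus IgG, for the 8 tested genes, with 95% intervals from limma (n = 3 tumors per group). The interval of Vim, in orange, runs from 0.81 to 2.28, and the other 7 intervals include 0.

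Vim (ENSMUSG00000026728, protein-coding, chr2:13573927-13582826) encodes vimentin, the main intermediate filament protein of mesenchymal cells. It was listed at 42.9, 22.0 and 22.6 FPKM with IgG and 64.5, 78.0 and 112 FPKM with anti-PD-1, from 2505 to 12619 reads. IgG replicate 1 was the highest control and still below the lowest anti-PD-1 tumor. The means were 29.2 ± 11.9 (SD, n = 3) with IgG and 84.8 ± 24.5 (SD, n = 3) with anti-PD-1, a ratio of 2.91. The log2 fold change was 1.54 (SE, the standard error, 0.31, unadjusted p = 0.00157, adjusted p = 0.344 from limma), and the exact permutation p was 0.1, the smallest this design allows. Vim passed the study thresholds under all 14 alternative settings, with log2 fold changes from 1.33 to 1.85 and limma adjusted p from 0.0861 to 0.761. The study named Vim on these same tumors, so its direction is not independent evidence. The study also measured Vim by qRT-PCR and reports higher Vim protein by immunohistochemistry, neither of which was examined here.

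The genes around Vim on chromosome 2 did not share its difference as a group. The 28 other protein-coding genes tested within 5 Mb had a median log2 fold change of -0.09, and 1 of them was past the thresholds in each direction. No annotated gene overlapped Vim.

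In whole tumors, more cells of a type and more RNA per cell cannot be told apart, so the level of Vim was set beside markers of the other cells that express it. Of 8 fibroblast markers (Pdgfra, Pdgfrb, Dcn, Lum, Thy1, Fap, Col6a3 and Fbln2), all tested, 3 had a higher mean in anti-PD-1 tumors and none was past the thresholds. Their summed FPKM ranged from 54.2 to 63.5 in IgG and from 24.8 to 81.0 in anti-PD-1 tumors, with the lowest sum in anti-PD-1 replicate 2, where Vim stood at 78.0 FPKM. Per unit of this sum, Vim was 0.678, 0.346 and 0.417 with IgG and 0.796, 3.15 and 2.16 with anti-PD-1, and the groups again did not overlap. Per unit of Col1a1, a collagen made by fibroblasts, Vim was 0.456, 1.26 and 0.655 with IgG and 0.522, 2.46 and 1.55 with anti-PD-1, and here the groups overlapped. Col1a1 itself had a log2 fold change of 0.76 (SE 0.67, adjusted p = 0.666 from limma). It belongs to the other mesenchymal genes given below, of which 8 of the 9 tested had a higher mean and none was past the thresholds.

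Among 8 leukocyte markers (Ptprc, Cd68, Adgre1, Csf1r, Lyz2, Cd3e, Cd79a and Itgam), 6 were tested, all 6 had a higher mean in anti-PD-1 tumors (50.8% of all tested genes had), and Cd68 was past the thresholds as higher (3.9% of all tested genes were). Cd68, a lysosomal protein abundant in macrophages, was listed at 18.3, 15.2 and 13.8 FPKM with IgG and 22.1, 30.7 and 29.3 FPKM with anti-PD-1 (log2 fold change 0.76, SE 0.19, adjusted p = 0.344 from limma). Adgre1 and Csf1r, also macrophage genes, had log2 fold changes of 0.01 and 0.11, and Ptprc had one of 0.03. Summed over the 8 markers the range was 201 to 266 FPKM in IgG and 179 to 413 FPKM in anti-PD-1 tumors, so the groups overlapped. Lyz2 alone made up most of this sum, at 165 to 222 FPKM with IgG and 131 to 350 FPKM with anti-PD-1. The T cell gene Cd3e and the B cell gene Cd79a, not tested, were at 0 in anti-PD-1 replicate 2. Their mean FPKM was lower with anti-PD-1, 0.0258 for Cd3e and 0.182 for Cd79a, against 0.197 and 0.583 with IgG. Vim per Cd68 was 2.35, 1.45 and 1.63 with IgG and 2.91, 2.54 and 3.82 with anti-PD-1. Those ratios did not overlap either. The part of Cd68-expressing cells in the level of Vim was not tested.

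All 6 endothelial markers (Pecam1, Cdh5, Kdr, Tek, Emcn and Tie1) had a lower mean in anti-PD-1 tumors, whereas 50.8% of all tested genes had a higher one. None was past the thresholds as lower (4.53% of all tested genes were), and their sum ranged from 16.3 to 22.8 FPKM in IgG and from 10.7 to 19.8 FPKM in anti-PD-1 tumors. Of 6 myoepithelial markers (Krt5, Krt14, Trp63, Myh11, Acta2 and Oxtr), whose cells are another source of vimentin in the mammary gland, 5 were tested and 1, Acta2, had a higher mean. The myoepithelial sum ranged from 22.6 to 28.5 FPKM in IgG and from 17.2 to 43.7 FPKM in anti-PD-1 tumors.

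**Figure D3:**
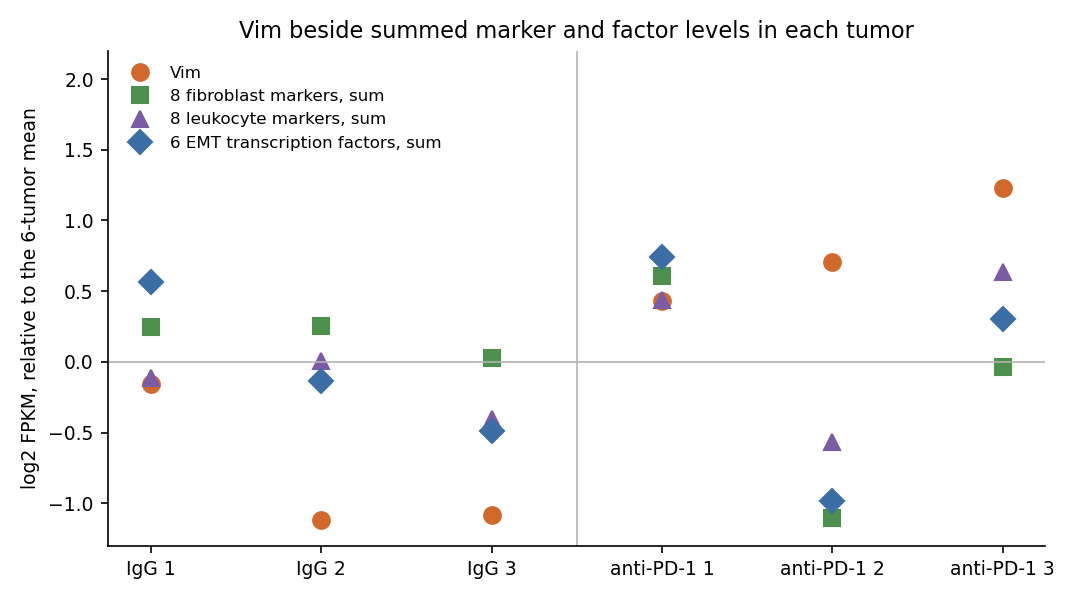
Log2 FPKM of Vim, of the sums of 8 fibroblast and 8 leukocyte markers, and of the sum of the 6 transcription factors, each relative to its mean over the 6 tumors; 1 symbol per tumor. Vim lies above its mean in all 3 anti-PD-1 tumors and below it in all 3 IgG tumors, whereas the 3 sums fall to their lowest in anti-PD-1 replicate 2. The leukocyte sum is mostly Lyz2.

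The genes whose pattern over the 6 tumors was closest to Vim were found by the root mean square difference of centred log2(FPKM + 1). They were Ptgfr, the prostaglandin F receptor (difference 0.153), Fmnl2, a formin that assembles actin filaments (0.202), and Cav2, a caveolin (0.227), where Vim itself varied by 0.861 around its mean. Cav2 was listed at 49.6, 22.9 and 29.9 FPKM with IgG and 63.8, 89.2 and 88.3 FPKM with anti-PD-1. Ptgfr was far lower, at 0.617, 0.0430 and 0.109 FPKM with IgG and 2.08, 3.06 and 3.69 FPKM with anti-PD-1. These genes were chosen for their likeness to Vim, so their own difference between the groups is no separate result.

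Epcam (ENSMUSG00000045394, protein-coding, chr17:87635979-87651129) encodes a surface glycoprotein of epithelial cells that is commonly used to sort carcinoma cells. It was listed at 885, 861 and 690 FPKM with IgG and 988, 1150 and 1122 FPKM with anti-PD-1. Every anti-PD-1 tumor was above every IgG tumor, by a margin that was small beside the level. Multiplied by exon length, the values came to about 36964 to 61209 reads, though not to whole ones within 0.1. The means were 812 ± 106 (SD, n = 3) and 1086 ± 86.4 (SD, n = 3) FPKM. The log2 fold change was 0.43 (SE 0.22, 95% interval -0.09 to 0.95, adjusted p = 0.462 from limma), with an unadjusted p of 0.0906 and an exact permutation p of 0.1. The unadjusted p was 0.0377 after quantile normalization and 0.0428 without the intensity trend, and in none of the 14 alternatives did Epcam pass the study thresholds.

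Cdh1 (ENSMUSG00000000303, protein-coding, chr8:106603351-106670246) encodes E-cadherin, the adhesion receptor of epithelial adherens junctions. Its levels stood at 86.7, 125 and 80.7 FPKM with IgG and 93.9, 62.4 and 72.3 FPKM with anti-PD-1. The groups overlapped, since anti-PD-1 replicate 1 lay above IgG replicates 1 and 3. The log2 fold change was -0.34 (SE 0.24, 95% interval -0.90 to 0.22, adjusted p = 0.588 from limma), and the exact permutation p was 0.3. It was negative under all 14 alternatives, from -0.50 to -0.16, and none made it pass the thresholds. From 6918 to 13773 reads lay behind these values, so counting error was small beside the spread between tumors.

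Both epithelial genes were measured with many reads, and their mean differences had opposite signs. Epcam per Cdh1 was 10.2, 6.86 and 8.55 with IgG and 10.5, 18.4 and 15.5 with anti-PD-1, with no overlap between the groups. Vim per Cdh1, a common index of EMT, was 0.495, 0.175 and 0.280 with IgG and 0.687, 1.25 and 1.55 with anti-PD-1. Vim exceeded Cdh1 in anti-PD-1 replicates 2 and 3 and in no other tumor. Vim per Epcam stayed between 0.0256 and 0.0485 in IgG and between 0.0652 and 0.0999 in anti-PD-1 tumors. These ratios share genes with the comparisons above and were not tested.

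Cdh2 (ENSMUSG00000024304, protein-coding, chromosome 18 from 16588877 to 16809246) encodes N-cadherin, the adhesion receptor of neural and mesenchymal cells to which carcinoma cells may switch. Its level was 0.141, 0.0827 and 0.178 FPKM with IgG and 0.0920, 0.133 and 0.125 FPKM with anti-PD-1. The tumors of the groups overlapped at a level 454 to 1518 times below that of Cdh1. Its reads summed to 76 with IgG and 69 with anti-PD-1, a ratio of 0.869 at equal depth (exact 95% interval 0.618 to 1.22, which covers counting error only). Cdh1 thus remained the prevailing cadherin of this pair in all 6 tumors.

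For Cdh1 the nearest patterns were those of Mrpl20, Abhd17b and Pgpep1, with differences of 0.0511, 0.0739 and 0.0781 where Cdh1 itself varied by 0.312. Mrpl20, for a protein of the mitochondrial ribosome, was listed at 21.7, 28.5 and 19.3 FPKM with IgG and 22.0, 14.4 and 17.7 FPKM with anti-PD-1. Cdh2 varied so little on this scale (0.0399) that its nearest genes, Ssh2, Zfp418 and Zfp27, were those that were also nearly level. Over 6 tumors many genes can follow such a pattern.

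The 6 transcription factors were low in every tumor, and none of the 5 tested was past the thresholds. Snai1 (ENSMUSG00000042821, chr2:167538195-167542814), the founding Snail repressor of Cdh1, was the highest of them. Snai1 stood at 4.48, 2.57 and 1.11 FPKM with IgG and 3.78, 1.37 and 2.57 FPKM with anti-PD-1, from 44 to 160 reads. High and low tumors occurred in both groups, and the log2 fold change was -0.01 (SE 0.40, 95% interval -0.94 to 0.93, adjusted p = 0.996 from limma). The interval includes differences of nearly 2-fold either way, and the sign turned under 6 of the 14 alternatives.

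Snai2 (ENSMUSG00000022676, chr16:14705852-14709385), known as Slug and a regulator of mammary stem and basal cells, was listed at 0.764, 0.124 and 0.507 FPKM with IgG and 0.715, 0.306 and 0.771 FPKM with anti-PD-1. As few as 6 reads (IgG replicate 2) lay behind a value. Its log2 fold change was 0.14 (95% interval -0.47 to 0.75, adjusted p = 0.854 from limma). The value came to 0.59 with voom on the recovered reads and to 0.44 with 0.1 added in place of 1. Without IgG replicate 2 it turned to -0.043.

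Twist1 (ENSMUSG00000035799, chr12:33957671-33959829), a factor of the mesoderm and of fibroblasts, spanned 10.5-fold from its lowest to its highest tumor. Its levels were 1.23, 0.768 and 0.931 FPKM with IgG and 2.93, 0.279 and 1.55 FPKM with anti-PD-1. Anti-PD-1 replicates 1 and 3 lay above every IgG tumor and replicate 2, with 11 reads, below every one. The log2 fold change was 0.25 (SE 0.40, 95% interval -0.68 to 1.19, adjusted p = 0.822 from limma). Without anti-PD-1 replicate 2 it was 0.69 (unadjusted p = 0.0397, adjusted p = 0.535 from limma), which made Twist1 the second of the 10 genes past the thresholds, and it fell to -0.12 without anti-PD-1 replicate 1.

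Twist2 (ENSMUSG00000007805, chr1:91801461-91848028), a relative of Twist1 found in dermal and other fibroblasts, was near the limit of detection. It had 10, 6 and 6 reads with IgG and 5, 0 and 2 reads with anti-PD-1. The read totals were 22 and 7, a ratio of 0.304 at equal depth (exact 95% interval 0.11 to 0.738), an interval that covers counting error and not the difference between tumors. With no filter on low FPKM its limma p was 0.0685 (adjusted p = 0.632). The groups did not overlap for Twist2. An antisense gene, Gm29100, overlaps it and had 11 reads in IgG replicate 2 and 0 in the other 5 tumors.

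Zeb1 (ENSMUSG00000024238, chromosome 18 from 5591860 to 5775467) and Zeb2 (ENSMUSG00000026872, chr2:44983632-45117395) encode large repressors of Cdh1 that are held down by microRNAs of the miR-200 family in epithelial cells. Zeb1 was listed at 0.850, 0.686 and 0.583 FPKM with IgG and 0.845, 0.349 and 0.779 FPKM with anti-PD-1. Zeb2 was listed at 0.720, 0.819 and 0.740 FPKM with IgG and 0.907, 0.488 and 1.11 FPKM with anti-PD-1. Both groups overlapped, with anti-PD-1 replicate 2 lowest for either gene. The log2 fold changes were -0.05 for Zeb1 (95% interval -0.56 to 0.46, adjusted p = 0.945 from limma) and 0.05 for Zeb2 (95% interval -0.45 to 0.55, adjusted p = 0.944 from limma). Antisense or other opposite-strand transcripts overlap both genes, with up to 15 reads each for Zeb2os and Gm10125 beside 236 to 528 reads of Zeb2 and 87 to 222 of Zeb1, and whether the counting used strand is not given in the sources used here.

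The factors were low together in anti-PD-1 replicate 2. This tumor was the lowest of the 6 for 4 of the 6 factors, and the summed FPKM of the 6 was 2.80 there, against 8.19, 5.05 and 3.95 with IgG and 9.24 and 6.81 in the other two anti-PD-1 tumors. The same tumor had the lowest fibroblast, leukocyte and endothelial sums (24.8, 179 and 10.7 FPKM). Most of the leukocyte sum was Lyz2 (131 FPKM here), which was lowest in this tumor, as were Adgre1, Csf1r, Cd3e and Cd79a. In contrast, Cd68 was at its highest here (30.7 FPKM), and Ptprc and Itgam were lowest in IgG replicate 3 (1.21 and 0.571 FPKM). The part of stromal content in the level of the factors was not tested. Anti-PD-1 replicate 2 also had the lowest Cdh1 and the highest Epcam of the 6 tumors. Vim, at 78.0 FPKM in this tumor, was above all IgG tumors. Among the IgG tumors, replicate 1 had both the highest factor sum and the highest Vim (42.9 FPKM).

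**Figure D4:**
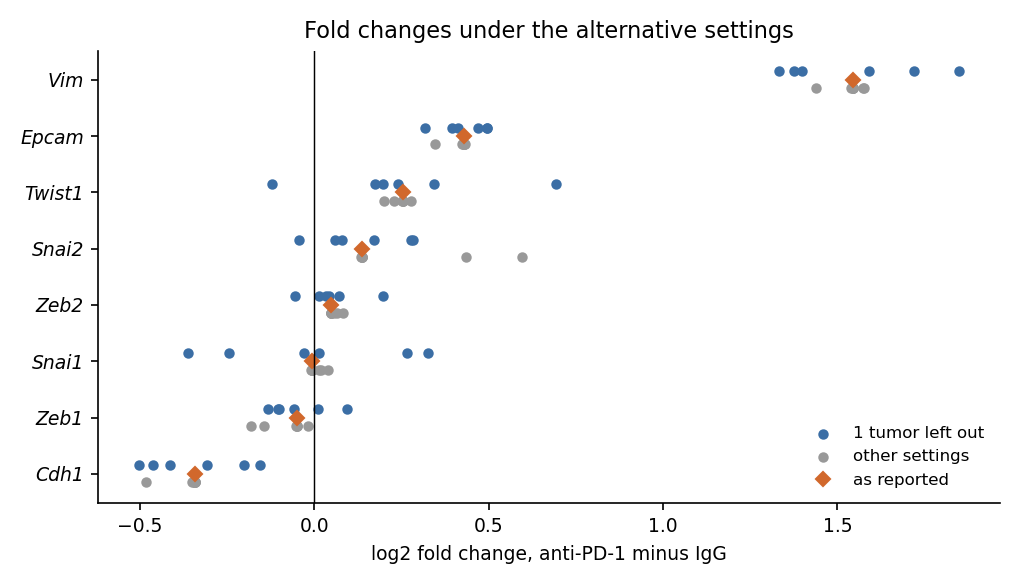
Log2 fold change (anti-PD-1 minus IgG) of the 8 tested genes as reported (orange diamonds), with 1 tumor left out (blue) and under the other settings (gray). Vim stays between 1.33 and 1.85 and Cdh1 between -0.50 and -0.16, whereas Snai1, Snai2, Twist1, Zeb1 and Zeb2 have values on both sides of 0.

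Genes around this core were taken as 5 lists, to be read beside all tested genes, of which 50.8% had a higher mean, 3.9% were past the thresholds as higher and 4.53% as lower, with a median of 0.01. Of 10 other EMT-promoting transcription factors, 5 were tested, 2 had a higher mean in anti-PD-1 tumors, and the median log2 fold change was -0.11. Tcf4, which encodes the E-protein E2-2, was the one past the thresholds. It was listed at 1.87, 2.52 and 4.58 FPKM with IgG and 1.60, 0.748 and 1.18 FPKM with anti-PD-1, with no overlap (log2 fold change -0.83, SE 0.29, adjusted p = 0.367 from limma). Its call was lost in 3 of 14 alternatives, those without IgG replicate 3 (-0.56), anti-PD-1 replicate 2 (-0.68) or anti-PD-1 replicate 3 (-0.84), and voom on the recovered reads gave -1.31. Tcf4 is also expressed by endothelial cells, whose summed markers were lowest in the same tumor as Tcf4, anti-PD-1 replicate 2. That sum was highest in IgG replicate 1 (22.8 FPKM), which had the lowest Tcf4 of the IgG tumors. The part of these cells in the difference was not tested. The largest positive value of this list was 0.07, for Prrx1, a homeobox gene of mesenchyme.

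Of 10 factors that maintain the epithelial state, all were tested, 5 had a higher mean, 2 were past the thresholds, both lower in anti-PD-1 tumors (4.53% of all tested genes were), and the median was -0.11 (-0.31 when IgG replicate 1 was left out and -0.0051 when IgG replicate 2 was). Grhl1, a grainyhead-like factor of epithelia, was listed at 14.6, 23.2 and 39.6 FPKM with IgG and 12.4, 8.46 and 13.1 FPKM with anti-PD-1, which did not overlap (log2 fold change -1.03, SE 0.35, adjusted p = 0.362 from limma). With single tumors left out it ranged from -1.36 to -0.68, the latter without IgG replicate 3. The call was lost there and without anti-PD-1 replicate 2 (-0.84). Its paralog Grhl2, known to keep up Cdh1, had the largest positive value, 0.54 (SE 0.21), under the fold threshold. Its groups did not overlap (9.87 to 12.7 FPKM with IgG and 12.9 to 19.9 with anti-PD-1), and it passed the thresholds in 2 of 14 alternatives, at 0.62 when IgG replicate 1 was left out and at 0.73 when anti-PD-1 replicate 1 was. Esrp1, a splicing regulator of epithelial isoforms, was listed at 27.6, 45.1 and 49.8 FPKM with IgG and 24.6, 30.7 and 22.4 FPKM with anti-PD-1 (log2 fold change -0.60, adjusted p = 0.403 from limma). These groups overlapped, and Esrp1 passed the thresholds in 8 of 14 alternatives. Esrp1 lies on chromosome 4, where 83.6% of tested genes were lower in anti-PD-1 tumors (median log2 fold change -0.40).

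The 10 adherens junction partners of Cdh1 were all tested, 7 had a higher mean and none was past the thresholds, with a median of 0.07, which came to 0.11 when anti-PD-1 replicate 2 was left out. The extremes were Ctnna1, which encodes the catenin that joins cadherins to actin, at 0.24 and Nectin1, a nectin adhesion receptor, at -0.61. Nectin1 lies on chromosome 9, where 82.3% of tested genes were lower in anti-PD-1 tumors. It passed the thresholds without anti-PD-1 replicate 1 (-0.92, unadjusted p = 0.0352, adjusted p = 0.438 from limma) and came to -0.26 without anti-PD-1 replicate 2. Ctnna1 was listed at 137, 125 and 106 FPKM with IgG and 138, 151 and 143 FPKM with anti-PD-1. Its difference came to 0.14 when IgG replicate 3 was left out and to 0.092 after quantile normalization.

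Of 12 other epithelial genes, all tested, 9 had a higher mean (50.8% of all tested genes had), and the median was 0.37, with 0.24 when IgG replicate 3 was left out. Past the thresholds were 2, Krt19 and St14, both lower in anti-PD-1 tumors, where 4.53% of all tested genes were. Krt19, a simple-epithelium keratin, was listed at 7.84, 77.9 and 7.46 FPKM with IgG and 4.09, 5.27 and 1.70 FPKM with anti-PD-1. Its log2 fold change was -2.03 (SE 0.85, adjusted p = 0.404 from limma), and -0.97 without IgG replicate 2, the tumor at 77.9. Krt19 passed the thresholds in 7 of 14 alternatives. St14, which encodes the membrane protease matriptase, had a log2 fold change of -0.88 (SE 0.35, adjusted p = 0.395 from limma). It passed in 8 of 14 alternatives, and it also lies on chromosome 9 (median over its genes -0.36). The largest positive value was 0.94, for the tight junction gene Cldn4, whose groups overlapped (18.9 to 98.7 FPKM in IgG and 60.2 to 133 in anti-PD-1 tumors). Without IgG replicate 3, the tumor at 18.9 FPKM, Cldn4 came to 0.26, and without IgG replicate 1 it passed the thresholds at 1.42 (unadjusted p = 0.0443, adjusted p = 0.267 from limma).

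Of 10 other mesenchymal genes, 9 were tested, 8 had a higher mean and none was past the thresholds, with a median of 0.59. The largest value was that of Col3a1, a fibrillar collagen, at 0.77 (SE 0.54, adjusted p = 0.588 from limma), and the smallest that of the galectin gene Lgals1 at -0.02. Col3a1 was listed at 62.0, 20.4 and 30.5 FPKM with IgG and 105, 29.0 and 64.3 FPKM with anti-PD-1, so that anti-PD-1 replicate 2 fell among the controls. S100a4 was listed at 0 in all 6 tumors. The median of this list ranged from 0.20 without IgG replicate 2 to 1.06 without anti-PD-1 replicate 2. Without the latter tumor Col3a1 came to 1.27 and passed the thresholds (unadjusted p = 0.0415, adjusted p = 0.535 from limma). It came to 0.41 when IgG replicate 2 was left out and to 0.35 when anti-PD-1 replicate 1 was.

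**Figure D5:**
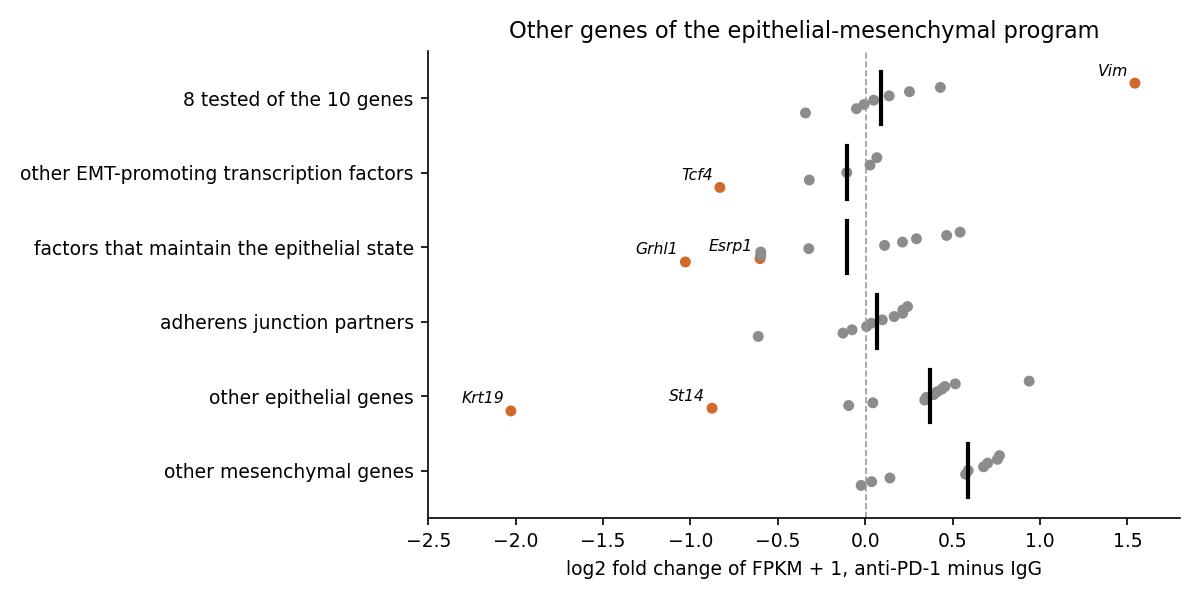
Log2 fold change of FPKM + 1 (anti-PD-1 minus IgG) of each tested gene in the 10-gene set and the 5 lists, with black bars for the medians and a dashed line for the median of all tested genes (0.01). Orange marks genes past the study thresholds, which are Vim to the right of 0 and Tcf4, Grhl1, Esrp1, Krt19 and St14 to the left.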

How the data were processed

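RNAseq of 6 mammary tumors (3 IgG, 3 anti-PD-1) was re-analyzed, with groups and replicate numbers taken from the labels. By the methods and the submitters' processing notes, the authors used FastQC 0.11.9, Cutadapt 3.5, a Bowtie2 2.4.1 index, RSEM 1.3.1 with Ensembl mm10 and the authors' DESeq2 1.36.0. The authors deposited FPKM values per gene ID, and how these were made is not given in the sources used here. Of 54532 IDs, 54409 matched GENCODE M21 (GRCm38).

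FPKM values were divided by median-of-ratios factors (1.00 to 1.01), 1 was added and log2 taken, and limma 3.58.1 in R 4.3.3 (lmFit, eBayes with trend) tested genes with a mean of at least 0.5 FPKM, two-sided, with Benjamini-Hochberg adjustment. A fold change on this scale understates that of low genes. Single genes were also compared by exact permutation tests. Summed reads were compared by exact binomial intervals, scaled by the library total that the FPKM worth of 1 read implies. Recovered reads per tumor came to 21065845 or more, and a count of 0 allows up to 3 reads. Scripts were tested on simulated data. Python 3.11.15, pandas 2.3.3, scipy 1.17.1 and matplotlib 3.10.9 were used.

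The genes and lists were chosen with earlier results of these data known. Named were the 10 genes, in each list the genes past the study thresholds and the largest and smallest changes, and the 3 protein-coding genes nearest in pattern to Vim, Cdh1 and Cdh2. Marker genes are named as members of their lists. The alternatives were another value added (0.1), no filter, a mean of at least 2 FPKM, FPKM as deposited, quantile normalization, no trend, a replicate block, voom on recovered reads and leaving out each tumor.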

Additional observations from a re-analysis of the deposited data

How the results depend on the processing

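Across the 14 alternatives Vim, like Cd68, kept its direction and its place past the study thresholds, and Epcam and Cdh1 kept their direction. Snai1, near 0 as reported, had log2 fold changes of 0.019 with 0.1 added, 0.012 after quantile normalization and 0.040 with voom, and from -0.36 to 0.33 when single tumors were left out. Leaving out single tumors also turned the sign of Snai2 (-0.043 to 0.28), Twist1 (-0.12 to 0.69), Zeb1 (-0.13 to 0.094), Zeb2 (-0.057 to 0.20), Prrx1 (-0.040 to 0.25) and Lgals1 (-0.26 to 0.33), and the cause was not tested. The median of the other EMT-promoting factors was -0.32 with a mean of at least 2 FPKM, which tests fewer genes, -0.24 with voom, and between -0.27 (without anti-PD-1 replicate 2) and -0.020 when single tumors were left out. The number of the 10 genes past the thresholds was 1 or 2 when single tumors were left out, and 352 to 999 genes were higher and 386 to 1234 lower over the whole table. The calls of Tcf4 and Grhl1 held in 11 and 12 of 14 alternatives, and those of Esrp1, St14 and Krt19 in 8, 8 and 7.

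The correlations of same-numbered deviations were -0.16, 0.01 and 0.19, and those of differently numbered tumors ran from -0.26 to 0.24. With 3 tumors per group they cannot settle whether the replicate numbers pair the tumors. With the replicate number as a block, 663 genes were higher and 671 lower, and Vim had a log2 fold change of 1.54 (unadjusted p = 0.00531). The block ended the call of St14 (unadjusted p = 0.0690) and brought Cldn4 and Col3a1 past the thresholds (unadjusted p = 0.0239 and 0.00774 from limma).

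Depth limits the statements on Twist2, Cdh2, Snai2 and Twist1, with as few as 0, 16, 6 and 11 reads in a tumor. Twist2 and Cdh2 were tested only without a filter. With 3 tumors per group, the limma intervals of the 5 tested factors include log2 differences of 0.45 in either direction.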

Other observations

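Mouse Erbb2, which shares its name with the oncogene of the transgene, was listed at 23.2, 20.3 and 21.0 FPKM with IgG and at 31.4, 25.2 and 25.9 FPKM with anti-PD-1. The groups did not overlap (log2 fold change 0.34, SE 0.15, adjusted p = 0.424 from limma). It was not past the study thresholds, and whether reads of the transgene count toward it was not tested. Chosen after its values were seen, Rab25 did not overlap between the groups either. It encodes a GTPase of epithelial membrane traffic, is counted above among the other epithelial genes and was listed at 74.6, 71.2 and 79.9 FPKM in IgG and 84.0, 119 and 110 FPKM in anti-PD-1 tumors.

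The summed FPKM of 5 skeletal muscle genes (Acta1, Ckm, Myh4, Tnnt3 and Mylpf) was 136 in IgG replicate 2, 74.8 in anti-PD-1 replicate 1 and 148 in anti-PD-1 replicate 2, and between 0.612 and 5.31 in the other 3 tumors. Of 5 adipocyte markers (Adipoq, Plin1, Cidec, Fabp4 and Lep), 1 passed the minimum level, Fabp4, at 1.35 to 5.64 FPKM.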
